A study of Drosophila melanogaster with 8 samples.

Results

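Notch, its ligands Delta (Dl) and Serrate (Ser), and the 7 bHLH genes of the Enhancer-of-split complex, E(spl), were followed in dissected Ras/Src tumours of Drosophila melanogaster larvae. The members were taken by name from current gene symbols, with Dl listed there as Delta, and all 10 were found among 15682 gene rows. Each library came from pooled dissected eye disc tumours of genotype ras1G12V;csk-/-. An oncogenic form of the fly Ras1 was expressed from a transgene, and Csk, a kinase that restrains Src, was lost by a nonsense allele, in GFP-labelled clones made with an eyeless-driven recombinase. Both groups carried these changes. The 4 control diet (CD) libraries were from animals on 0.15 M sucrose dissected at day 8, and the 4 high-sugar diet (HSD) libraries from animals on 1.0 M sucrose dissected at day 14, so that diet and age cannot be told apart. The discs also held cells outside the clones. There were no tumour-free libraries among the 8. The pools of a diet are described by the study as independent biological samples, while the labels do not say how animals or cultures were shared among them.

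Notch is a receptor at the cell surface that is activated by Delta or Serrate on a neighbouring cell. Cleavage by a metalloprotease and then by gamma-secretase frees its intracellular domain, which enters the nucleus and, with the DNA-binding protein Su(H) and the co-activator Mastermind, switches on target genes. The E(spl) bHLH genes are the best known of these targets, and encode repressors that recruit the co-repressor Groucho and restrain proneural genes such as atonal. In the eye disc this pathway drives growth from the dorsoventral midline, spaces the founding photoreceptors and directs later cell fate choices.

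The members moved apart rather than together. In HSD tumours Ser transcript was 4.35-fold higher, N 1.35-fold, E(spl)m3-HLH 1.74-fold and E(spl)mbeta-HLH 1.27-fold, while Dl was at the same mean level in both diets. The other 5 E(spl) bHLH genes were lower, from 2.09-fold for E(spl)m8-HLH to 9.10-fold for E(spl)m5-HLH. Among the members, 9 of 10 passed edgeR's quasi-likelihood test at an adjusted p of 0.05, with 4 higher in HSD and 5 lower. Over all 9257 genes tested 52.1% were called, 25.9% higher and 26.2% lower, so a call by itself sets a gene apart little in these data. Libraries of the 2 diets did not overlap for the same 9 members, against 50.5% of all genes. The members' median size of change was 1.18 on the log2 scale, beside 0.45 over all genes tested. In pooled tissue, fewer cells of a type and less RNA per cell cannot be told apart.

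**Figure D1:**
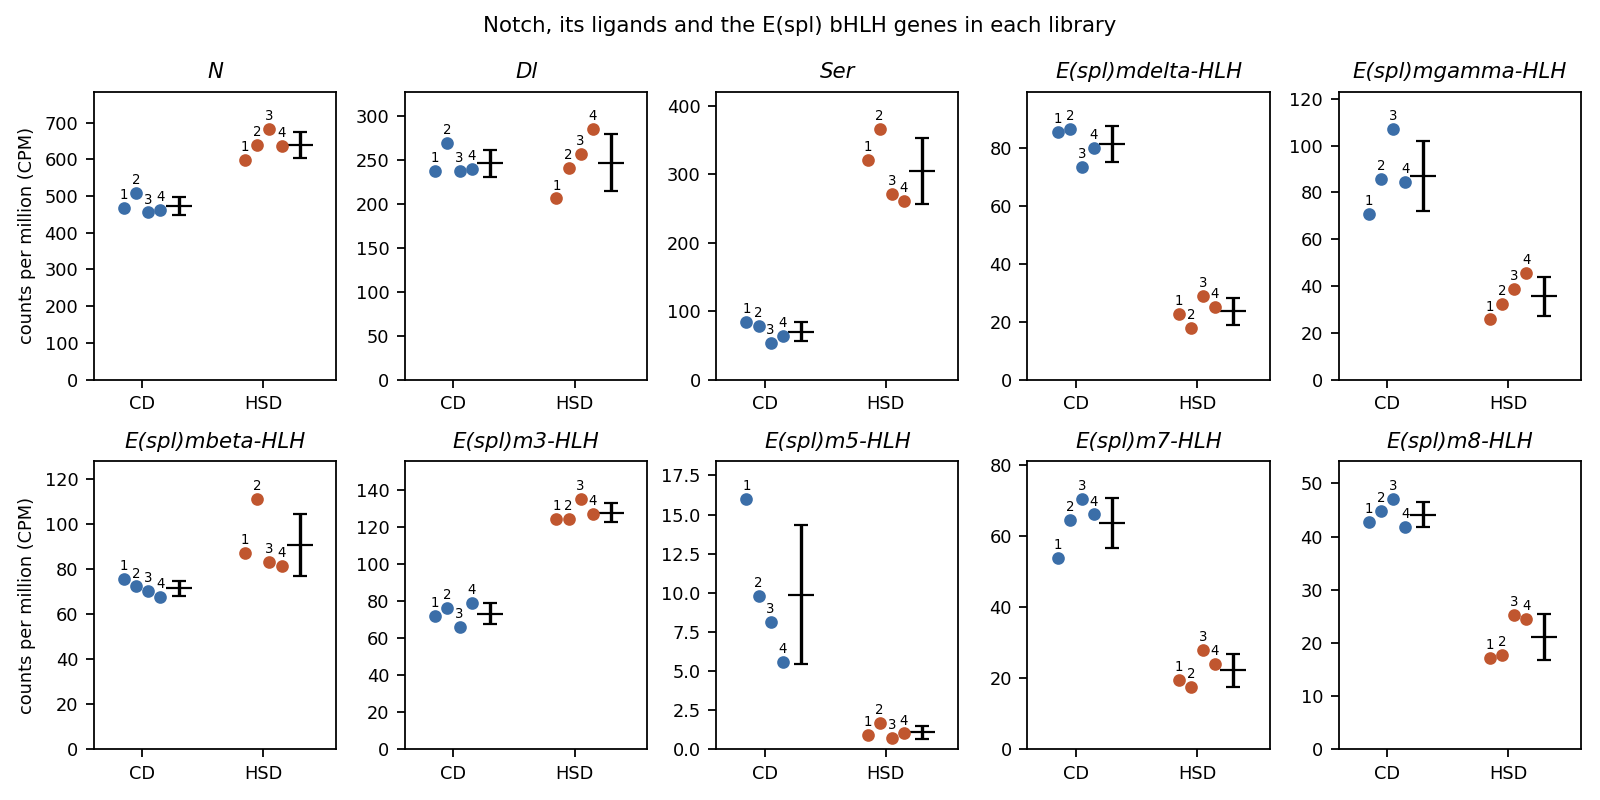
Level, in CPM scaled by TMM, of each member in the 4 CD (blue) and 4 HSD (orange) libraries, numbered by replicate, with the mean and SD as a black bar; each panel has its own axis from 0. The diets overlap in Dl alone, and Ser shows the largest gap among the genes that were higher in HSD.

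N, the receptor gene (FBgn0004647, chromosome X, 3134870 to 3172221 on the plus strand in BDGP6), stood at 467, 509, 455 and 462 CPM in CD replicates 1 to 4, and at 597, 640.2, 682 and 635 CPM in HSD replicates 1 to 4. CPM are counts per 1000000 counts of the library, scaled by TMM. Every HSD library lay above every CD library, and the spread within a diet was narrow, with a coefficient of variation of 5.13% in CD and 5.41% in HSD. The log2FC, the log2 fold change of HSD over CD as fitted by edgeR, was 0.43 (SE 0.06), and its Benjamini-Hochberg adjusted p was 0.00016. It was small in size, and with the libraries scaled to their cytosolic ribosomal protein genes it was 0.083 (edgeR, adjusted p = 0.442), where the median of all genes tested moved to -0.35.

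The ligands differed from each other. Dl (FBgn0000463, chromosome 3R, 19302731 to 19326217 on the minus strand) had 238, 269.6, 237 and 240.2 CPM in CD, and 206, 240.5, 256.5 and 285 CPM in HSD. The HSD libraries lay on both sides of the CD values. No difference was detected, with a log2FC of 0.0048 and a 95% interval from -0.21 to 0.22 (edgeR, adjusted p = 0.972). Scaled to ribosomal protein genes, Dl was called lower at -0.34 (edgeR, adjusted p = 0.0473), close to the shift of the median gene.

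Ser (FBgn0004197, chromosome 3R, 27172090 to 27194267 on the minus strand) had 83.9, 78.6, 54.2 and 63.9 CPM in CD and 321.5, 366, 271 and 261 CPM in HSD. Its lowest HSD library was more than 3-fold above its highest CD library. The rise of 2.12 on the log2 scale (SE 0.15, edgeR, adjusted p = 1.29e-06) was higher than that of 97.1% of all genes tested. Leaving out a library gave 2.02 to 2.24, and scaling to ribosomal protein genes 1.76. Within HSD, replicates 1 and 2 held more Ser than replicates 3 and 4.

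The ratio of the ligands within a library does not depend on how libraries are scaled. In CD there were 0.352, 0.292, 0.229 and 0.266 Ser counts for each Dl count, and in HSD 1.56, 1.52, 1.06 and 0.916. Ser thus made up 22.1% ± 3.12 of ligand counts in CD and 55.1% ± 6.54 in HSD (SD, n = 4 each). Per kilobase of exon, which allows levels of different genes to be compared, Dl had 46.6 ± 2.97 CPM in CD and Ser 12 ± 2.33. In HSD these levels were 46.8 ± 6.21 and 52.3 ± 8.32, and their ranges overlapped. Summed over both ligands, levels rose from between 291 and 348 CPM in CD to between 527 and 606 CPM in HSD.

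The E(spl) bHLH genes lie within 52.3 kb of chromosome 3R (25997621 to 26049911 in BDGP6, measured to the end of gro), each with its transcript in an exon of its own and no intron. No exon of another annotated gene overlaps any of the 10 members. From left to right the tested genes of the complex start with E(spl)mdelta-HLH, E(spl)mgamma-HLH and E(spl)mbeta-HLH, then E(spl)malpha-BFM and E(spl)m2-BFM of the Bearded family. Next come E(spl)m3-HLH, E(spl)m4-BFM, E(spl)m5-HLH, E(spl)m6-BFM, E(spl)m7-HLH, E(spl)m8-HLH and gro, which encodes Groucho. E(spl)m1, which was not tested, lies between E(spl)malpha-BFM and E(spl)m2-BFM. The bHLH repressors have overlapping functions and are expressed in different patterns across the discs and the nervous system.

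E(spl)m3-HLH (FBgn0002609, 26021823 to 26023127) had 71.8, 76.2, 65.8 and 78.7 CPM in CD and 124, 124, 135 and 127 CPM in HSD. The values were tight within each diet and far apart between them. It rose by 0.80 on the log2 scale (SE 0.08, edgeR, adjusted p = 1.00e-05). Of the E(spl) bHLH genes it had the highest mean in HSD, in CPM and per kilobase. Per kilobase of exon its range overlapped that of E(spl)mbeta-HLH, which was higher in HSD replicate 2 (113.7 against 95.2 CPM). The rise was kept under every scaling tried, at 0.45 with ribosomal protein genes.

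E(spl)mbeta-HLH (FBgn0002733, 26005046 to 26006023) is broadly expressed in discs. Its levels were 75.6, 72.3, 70.1 and 67.8 CPM in CD and 87.2, 111, 83.3 and 81.4 CPM in HSD. The diets did not overlap, but HSD replicate 2 stood well above the others. The log2FC was 0.35 (SE 0.11, edgeR, adjusted p = 0.0186), and 0.24 without HSD replicate 2. The call was lost with total counts alone (0.21, adjusted p = 0.105), and on ribosomal protein scaling the value was -0.0031, so that its direction rests on the scaling.

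The fall was largest in E(spl)m5-HLH (FBgn0002631, 26028854 to 26029735), the least abundant member. CD libraries held 16.0, 9.82, 8.14 and 5.58 CPM, and HSD libraries 0.907, 1.66, 0.722 and 1.01 CPM. These HSD levels rest on 17, 31, 13 and 14 counts. The fall was -3.19 on the log2 scale with a wide error (SE 0.46, edgeR, adjusted p = 0.000167), and without CD replicate 1, its highest library, it was -2.84 and still called.

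E(spl)mdelta-HLH (FBgn0002734, 25997621 to 25998633), which acts in developing photoreceptors, fell from 85.7, 86.4, 73.3 and 80.0 CPM in CD to 22.6, 17.9, 29.0 and 25.2 CPM in HSD. Its log2FC was -1.78 (SE 0.14, edgeR, adjusted p = 2.55e-06). E(spl)mgamma-HLH (FBgn0002735, 25999851 to 26000761), which is also a Notch target in neuroblasts, had 70.9, 85.6, 107 and 84.6 CPM in CD and 25.7, 32.5, 38.6 and 45.6 CPM in HSD, with a log2FC of -1.29 (SE 0.18). For both genes the highest HSD library was far below the lowest CD library.

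At the right end of the complex, E(spl)m7-HLH (FBgn0002633, 26037038 to 26038019) had 53.7, 64.4, 70.4 and 66 CPM in CD against 19.4, 17.4, 27.8 and 24.1 CPM in HSD. Its log2FC was -1.52 (SE 0.16). E(spl)m8-HLH (FBgn0000591, 26040240 to 26041008), the gene altered in the classical split-enhancing mutant, had 42.7, 44.9, 47.1 and 41.9 CPM in CD and 17.2, 17.7, 25.2 and 24.5 CPM in HSD, a log2FC of -1.06 (SE 0.15, edgeR, adjusted p = 0.000136). In HSD replicates 3 and 4, E(spl)mdelta-HLH, E(spl)mgamma-HLH, E(spl)m7-HLH and E(spl)m8-HLH were each higher than in replicates 1 and 2.

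Rising and falling genes were interleaved along the complex. E(spl)m3-HLH lay between E(spl)m2-BFM, which had 70.3 ± 2.84 CPM in CD libraries and 58.8 ± 7.74 CPM in HSD libraries (edgeR, adjusted p = 0.0567, and called lower in 9 of 18 alternatives), and E(spl)m4-BFM, which fell by 1.20 on the log2 scale. E(spl)m5-HLH and its neighbour E(spl)m6-BFM had the largest falls, and E(spl)m6-BFM went from 8.40 ± 3.21 to 1.04 ± 0.259 CPM (SD, n = 4 each). The last gene, gro, showed no detectable difference, with a 95% interval from -0.20 to 0.11, though with ribosomal protein scaling it was called lower at -0.40.

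**Figure D2:**
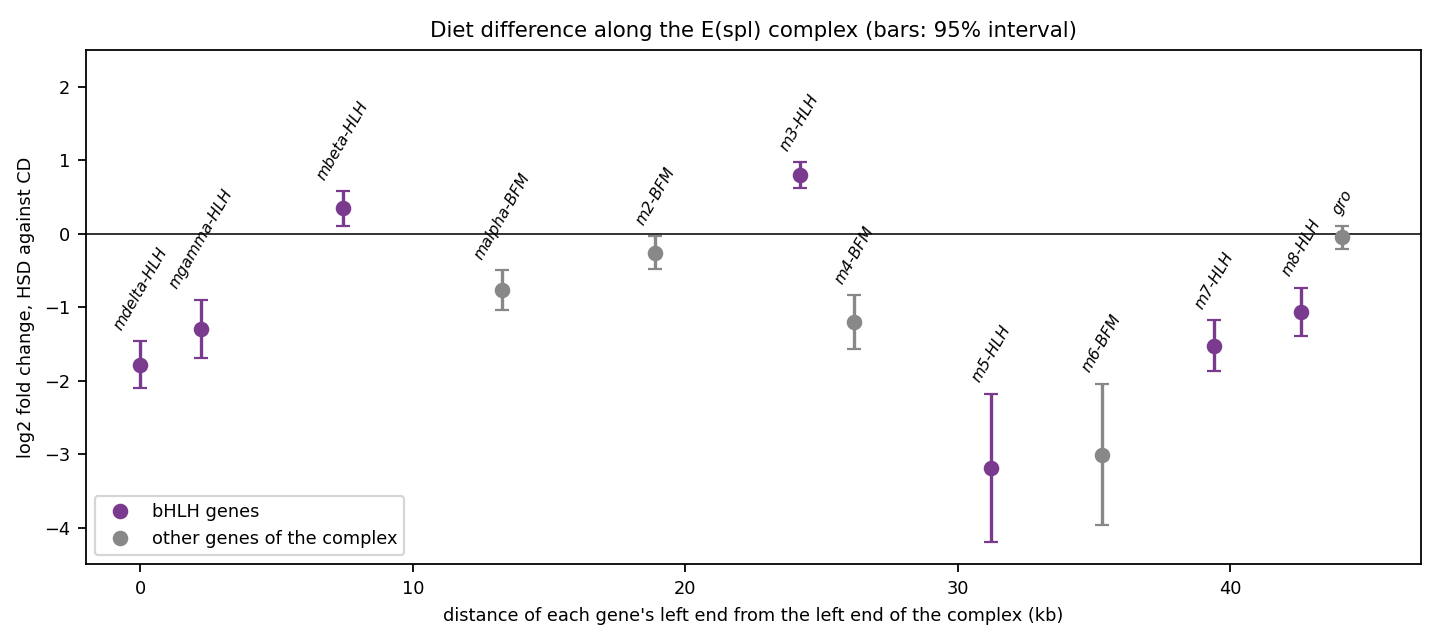
Log2 fold change of HSD against CD, with its 95% interval, for the 7 bHLH genes (purple) and 5 other genes of the E(spl) complex (grey), against the distance in kb of each gene's left end from the left end of the complex. E(spl)mbeta-HLH and E(spl)m3-HLH lie above 0 (E(spl)mbeta-HLH at -0.0031 when scaled to ribosomal protein genes), between genes that lie below it.

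The make-up of E(spl) bHLH transcripts turned over between diets. Together E(spl)mbeta-HLH and E(spl)m3-HLH held 35.4%, 33.8%, 30.8% and 34.5% of the summed CPM of the 7 genes in CD, and 71.2%, 73.0%, 64.3% and 63.4% in HSD. These shares are within a library and are not changed by scaling, though a longer transcript takes a larger share. E(spl)m3-HLH alone went from 17.0% ± 1.52 to 39.7% ± 1.56 (SD, n = 4 each), and E(spl)mdelta-HLH from 18.9% ± 1.70 to 7.34% ± 1.27. The sum of all 7 genes came to 431 ± 12.2 CPM for CD libraries and 322 ± 17.9 CPM for HSD libraries, a ratio of 0.748, as the pair gained and the other 5 lost. The pair summed to 145 ± 5.81 CPM in CD and 218 ± 12.2 CPM in HSD, and the other 5 to 286 ± 16.1 and 104 ± 19.9 CPM.

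**Figure D3:**
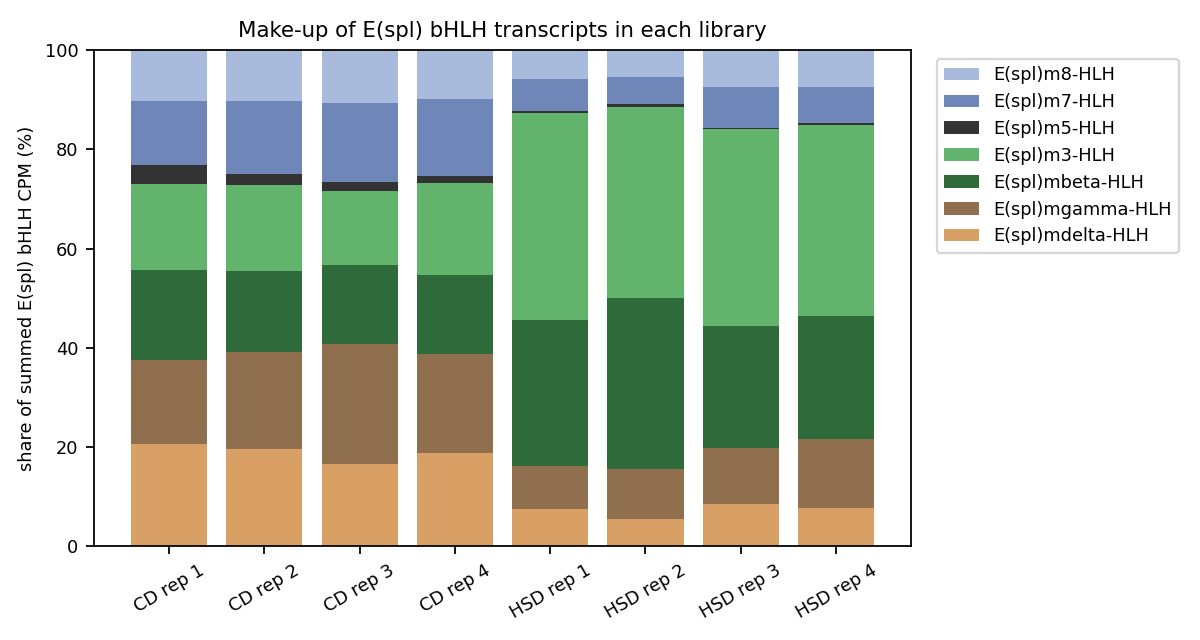
Share (%) of the summed CPM of the 7 E(spl) bHLH genes held by each gene, in every CD and HSD library. The 2 green segments, E(spl)mbeta-HLH and E(spl)m3-HLH, cover between 30.8% and 35.4% in CD and between 63.4% and 73.0% in HSD.

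Ratios between members gave the same picture in each library. There were 0.838, 0.881, 0.898 and 0.984 counts of E(spl)m3-HLH for each count of E(spl)mdelta-HLH in CD, and 5.51, 6.95, 4.65 and 5.02 in HSD. For E(spl)mbeta-HLH over E(spl)mgamma-HLH the ratios were 1.07, 0.845, 0.655 and 0.802 in CD and 3.39, 3.42, 2.16 and 1.79 in HSD. The genes that fell did not fall alike. E(spl)m7-HLH had 1.44 ± 0.135 counts for each count of its neighbour E(spl)m8-HLH in CD and 1.05 ± 0.0747 in HSD, and these ranges did not overlap.

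The order of the members by level changed as well. Per kilobase of exon, E(spl)mgamma-HLH (95.5 ± 16.4 CPM) and E(spl)mdelta-HLH (80.3 ± 6.0) stood highest in CD, and Ser (12 ± 2.33) and E(spl)m5-HLH (11.2 ± 5.03) lowest. Neighbours in this order had overlapping ranges except N and Ser. In HSD, E(spl)m3-HLH (97.8 ± 3.88) and E(spl)mbeta-HLH (92.8 ± 14.2) stood highest and overlapped, and N followed at 62.9 ± 3.41, below the range of both. E(spl)m5-HLH (1.22 ± 0.465) was again lowest, well apart from E(spl)m7-HLH (22.6 ± 4.77). The other neighbours overlapped in HSD.

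By a fixed rule on the distance between centred log2 CPM over the 8 libraries, the genes most like N were lncRNA:CR42549 (distance 0.153), Nap1 (0.159) and CG11583 (0.16), where the median distance to N was 1.07. The genes most like E(spl)m3-HLH, the E(spl) bHLH gene with the highest mean CPM, were sdk (0.198), nero (0.221) and COX4 (0.23), with a median of 1.45. With the diets as separate clusters, this likeness is mainly that of the size of the diet difference.

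Other genes of the pathway were read from 9 lists by role, with 46 genes, of which 44 were among the gene rows and 42 were tested. Of the 42, 27 (64.3%) were called, 8 higher and 19 lower in HSD, beside 52.1% of all genes. Their median log2FC was -0.23, beside 0.00091 over all genes tested. This split rests on the scaling: 1 gene, h, was called higher and 27 lower on ribosomal protein scaling, with a median of -0.58 where that of all genes was -0.35, and 3 were called higher and 21 lower with total counts alone.

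Among nuclear factors, Su(H), the DNA-binding effector of the pathway, fell from 40.8 ± 2.22 to 27.7 ± 1.39 CPM, a log2FC of -0.56 (SE 0.10, edgeR, adjusted p = 0.000706). The co-activator gene mam fell by 0.92, from 350.4 ± 10.0 to 185 ± 22.8 CPM. CtBP, a co-repressor gene, rose by 0.22, a rise lost with total counts alone and reversed to -0.12 on ribosomal protein scaling. Hairless (H), which encodes the antagonist of Su(H), was at 132 ± 14.6 and 124 ± 9.93 CPM, with a 95% interval of its log2FC from -0.30 to 0.12 and a call at -0.44 on ribosomal protein scaling.

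The Bearded family, small proteins that inhibit Neuralized, was lower where it was called. Its genes in the E(spl) complex are themselves Notch targets. Of the 5 other genes of the E(spl) complex tested, E(spl)malpha-BFM, E(spl)m4-BFM and E(spl)m6-BFM fell, and E(spl)m2-BFM and gro were not called. E(spl)malpha-BFM fell from 102 ± 15.0 to 59.9 ± 6.49 CPM and E(spl)m4-BFM from 119.6 ± 9.34 to 52.1 ± 13.1 CPM. E(spl)m1, a gene of the complex with at most 43 counts in a library, was not tested. In the Bearded complex, Tom fell by 1.44 and Brd by 1.31 on the log2 scale, Ocho was at 9.52 ± 3.28 and 7.49 ± 2.63 CPM without a call, and BobA, with at most 8 counts, was not tested.

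For ligand endocytosis, neur, which encodes the E3 ligase Neuralized that acts on Delta in neural precursors, fell from 138 ± 9.78 to 67.6 ± 3.20 CPM, a log2FC of -1.03 (SE 0.08). The more broadly expressed ligase gene mib1 rose by 0.25, a value that was lost with total counts alone and without HSD replicate 2, and that was -0.10 on ribosomal protein scaling. The epsin gene lqf had a 95% interval from -0.17 to 0.09, and was called lower on both total counts (-0.17) and ribosomal protein scaling (-0.39).

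Of the receptor trafficking genes, spdo, which is active in asymmetric cell division, fell by 3.60 on the log2 scale, from 30.8 ± 8.77 to 2.55 ± 0.970 CPM. The ubiquitin ligase genes Nedd4 and Su(dx), which promote turnover of Notch, rose by 0.46 and 0.25. The call of Nedd4 was lost on ribosomal protein scaling, while that of Su(dx) was lost with upper quartile scaling, with total counts alone, with the replicate block and without HSD replicate 1, 2 or 3, and its value was -0.10 on ribosomal protein scaling. The log2FC was 0.10 for both numb and dx, with no call, and -0.25 for both on ribosomal protein scaling, where numb was called.

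Genes for the sugar transferases that modify Notch gave small differences. The log2FC was 0.34 for fng (edgeR, adjusted p = 0.0211) and -0.21 for O-fut1 (edgeR, adjusted p = 0.0303). The diets overlapped for fng, its call was lost with total counts alone and without HSD replicate 3, and its value on ribosomal protein scaling was -0.02. That of O-fut1 was lost in 5 alternatives that left out a library, without CD replicate 2 or 3 or HSD replicate 2, 3 or 4. No call was made for rumi with TMM, and it was called lower at -0.44 on ribosomal protein scaling.

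Among the proteases, kuz, the metalloprotease gene for Notch cleavage, was at 213 ± 24.1 and 208 ± 28.3 CPM, with a 95% interval from -0.28 to 0.21, and called lower at -0.38 on ribosomal protein scaling. The related Tace fell from 54.0 ± 10.4 to 3.08 ± 0.742 CPM, a log2FC of -4.14 (SE 0.22; edgeR, adjusted p = 2.52e-07). Of the gamma-secretase subunit genes, nct rose by 0.42, but not on ribosomal protein scaling (0.07), aph-1 fell by 0.46 and pen-2 was not called.

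Other genes that respond to Notch in some tissues were lower in 4 of 6 cases and higher in none. The homeobox gene ct fell from 248 ± 41.1 to 71.5 ± 13.8 CPM and klu, a zinc finger gene, from 90.9 ± 14.6 to 24.6 ± 5.64 CPM. Hey, a bHLH gene of newborn neurons, fell from 9.92 ± 2.65 to 0.204 ± 0.181 CPM. Hey was at 0 in HSD replicate 4 and at most 7 counts in the other HSD libraries. The fourth was dpn, a neuroblast gene, at a log2FC of -1.22, named after its value was seen. Of 8 proneural genes and partners tested, 3 fell and 2 rose. The asense gene ase, expressed in neural precursors, fell by 2.79 on the log2 scale. The log2FC of sens, a gene of sensory precursors and founder photoreceptors, was -2.41. The hairy gene h, a bHLH repressor gene related to E(spl), rose from 107 ± 5.31 to 218 ± 27.3 CPM. After their values were seen, ato, the proneural gene of photoreceptors, is named with a log2FC of -2.13, and emc with 0.20, which was -0.15 on ribosomal protein scaling. No call was made for ac, sc and l(1)sc with TMM over all libraries. Without CD replicate 1, ac was called higher at 0.70 (edgeR, adjusted p = 0.0219). With HSD replicate 4 left out too, ac was at 0.76 (edgeR, adjusted p = 0.0153).

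**Figure D4:**
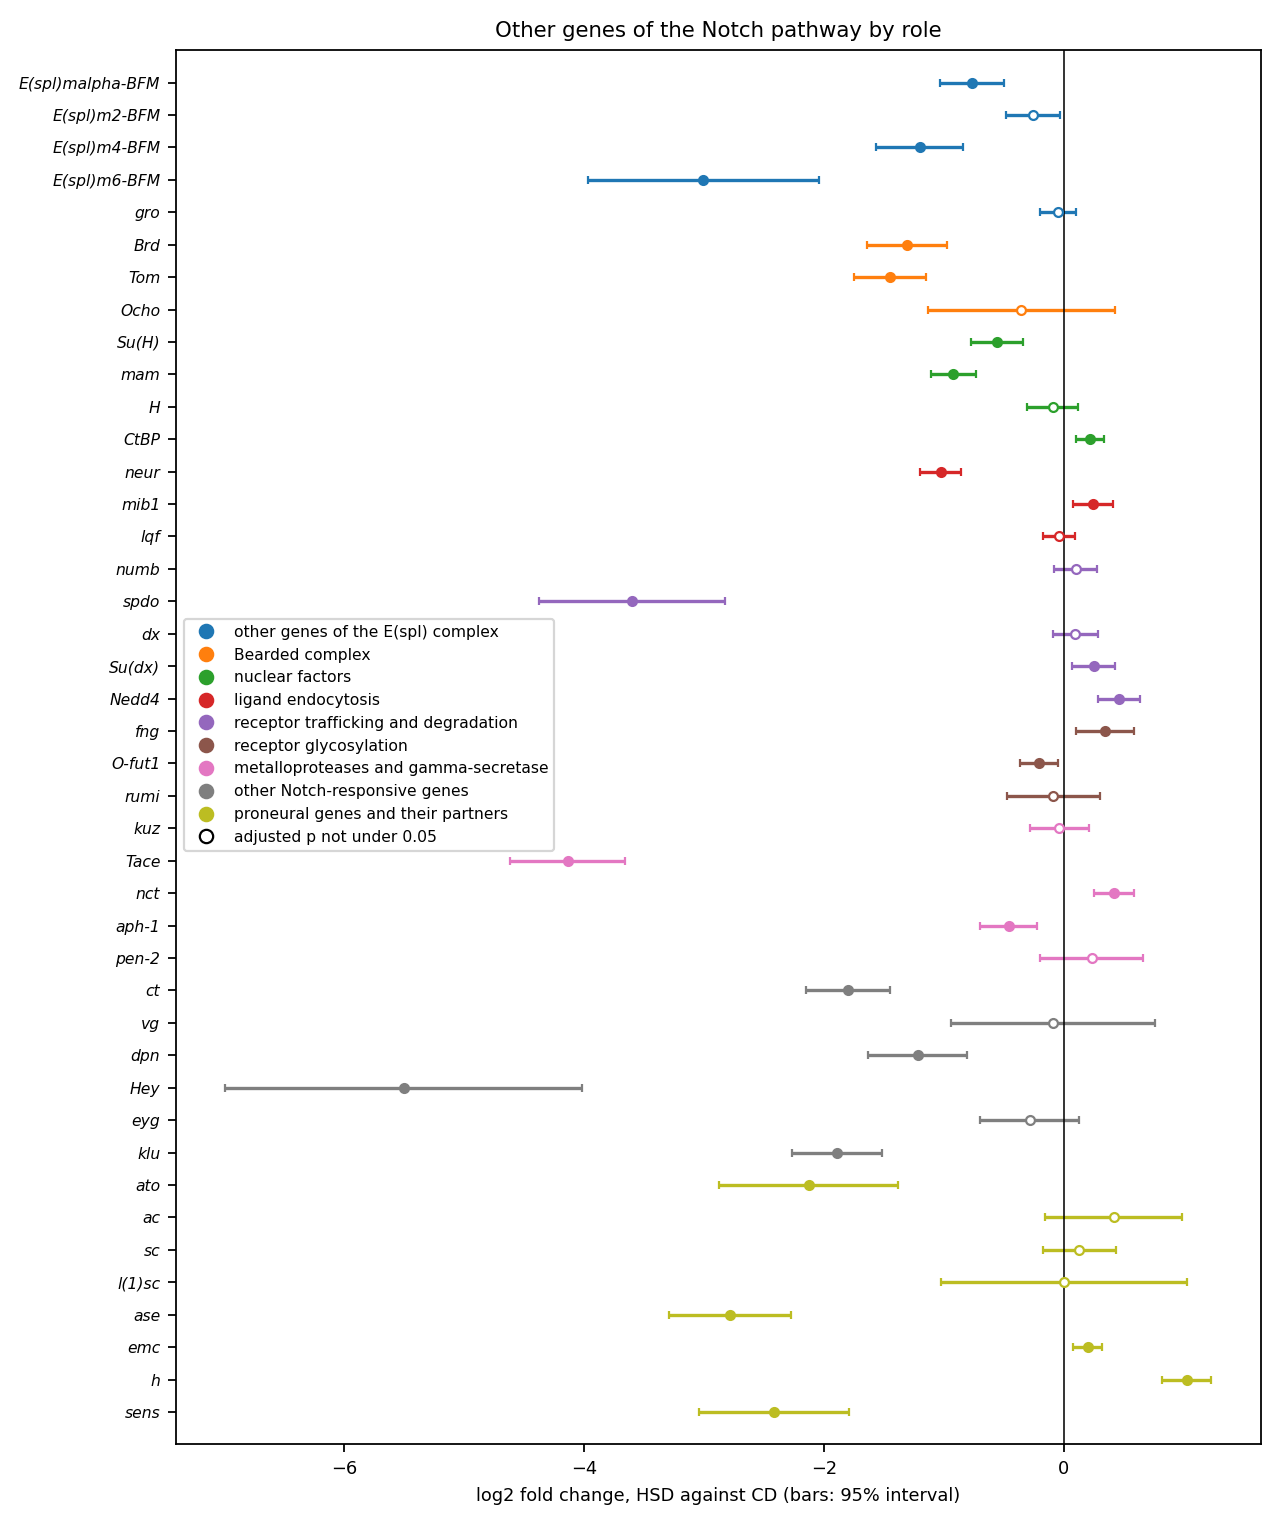
Log2 fold change of HSD against CD with its 95% interval for the 42 other pathway genes tested, coloured by role, with open circles where the adjusted p was not under 0.05. Hey, Tace, spdo and E(spl)m6-BFM lie farthest to the left; the small rises of mib1, Su(dx), CtBP, fng and emc turn below 0 on ribosomal protein scaling.

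Markers of cell types in which Notch acts moved with diet too. The eye identity genes were present in every library, and ey was at 119 ± 3.24 CPM in the CD group against 123 ± 6.95 CPM in the HSD group, but 4 of the 5 retinal determination genes fell. All 7 photoreceptor markers tested fell, and their summed level was 517 to 582 CPM in CD and 104 to 177 CPM in HSD (ninaE had counts in CD replicate 3 alone). By library in HSD this sum was 104, 112, 135 and 177 CPM, highest in replicates 3 and 4, where E(spl)mdelta-HLH, E(spl)mgamma-HLH, E(spl)m7-HLH and E(spl)m8-HLH were also highest. The sums of retinal determination and haemocyte markers were highest in HSD replicates 3 and 4 as well. The fat body sum was highest in HSD replicate 4 (2858 CPM), with replicate 3 (1261 CPM) level with replicate 2 (1259 CPM). The neuronal and muscle sums were also highest in HSD replicate 4, at 187.5 and 68.0 CPM. Replicate 3 was below replicate 2 for the neuronal sum (167.8 against 180.4 CPM). For the muscle sum, replicate 3 was below replicate 1 (14.3 against 19.0 CPM). Within HSD the neuroblast, glial and salivary gland sums were highest in replicate 2, and the tracheal sum in replicate 1. In CD the photoreceptor sum was lowest in replicate 3 (517 CPM), in which E(spl)mgamma-HLH, E(spl)m7-HLH and E(spl)m8-HLH were highest. E(spl)mdelta-HLH was lowest in that library (73.3 CPM), and its order over the CD libraries was that of the photoreceptor sum. The 8 neuronal markers all fell, with a sum of 1846 to 2258 CPM in CD and 110.5 to 188 CPM in HSD. Of the neuroblast markers 5 of 6 fell, while insc rose (log2FC 1.32). In that list the exons of insc overlap a gene on the same strand, sktl, and those of pros and grh overlap features on the opposite strand. The strand setting used in counting is not given, so the values of insc, pros and grh are uncertain. Among markers that fell in the other lists, ChAT, futsch, svp and gcm also have exons that overlap a gene on the same strand. The neuroblast sum was 1996 to 2422 CPM in CD and 261 to 361 CPM in HSD, and most of the difference was pros, which went from 1817 ± 181 to 33.6 ± 37.8 CPM. Glial markers fell in 4 of 6 cases and rose in 2. No marker of these lists was at 0 throughout. The part of these cells in the members' changes was not tested.

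For other tissues, all 4 tracheal markers rose, from a sum of 1001 to 1112 CPM to one of 1517 to 2230 CPM, and 4 of 5 muscle markers fell. Of the 5 fat body and the 5 haemocyte markers 1 each fell. Their part in the members' changes was not tested either. Salivary gland glue genes summed to 4581 CPM in CD replicate 1 and to at most 253 CPM elsewhere. The libraries held 11558860 to 19963565 counts, and CD replicate 1 and HSD replicate 4 stood apart on the second principal component. With both left out, all 9 calls among the members were made again in the same directions, Ser at 2.30, E(spl)m3-HLH at 0.81, E(spl)mbeta-HLH at 0.44 and E(spl)m5-HLH at -2.82.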

How the data were processed

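The deposited values were raw read counts per gene. The authors trimmed paired 100 bp reads with Trim Galore 0.4.4, aligned them to dm3 with TopHat2 2.0.11 and counted them with featureCounts. The kit was stranded, but the strand setting used in counting and the treatment of reads with several alignments are not given in the sources used here, so genes that overlap others are uncertain. Positions and exon lengths came from BDGP6, a different build, and no coordinate was converted. Of 15682 gene rows, 15002 matched a current symbol; Psn and da were not analysed here.

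Genes passing filterByExpr were scaled by TMM and compared by diet with edgeR 4.0.16 (R 4.3.3) in a two-sided quasi-likelihood test, and p-values of the 9257 genes that passed were adjusted together (Benjamini-Hochberg). The SE was the log2 fold change divided by the square root of F, and 95% intervals follow from it. The members and lists were chosen with earlier results of these data known. Named were all members and, of each pathway list, at most 3 called genes with the smallest adjusted p; genes not called are given as values, and others named were chosen after their values were seen. Alternatives were other scalings (78 ribosomal protein genes among them), other count filters, DESeq2 1.42.0, limma-voom 3.58.1, a replicate block and leaving out libraries; leaving out CD replicate 1 and HSD replicate 4 together was added after seeing the data. The test was tested on simulated data. The smallest chi-square per degree of freedom between libraries of a diet was 11.4, so none agreed within sampling noise. No sequence was read.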

Additional observations from a re-analysis of the deposited data

Results flagged for a closer look

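Dixon's ratio, the gap of an extreme library to its nearest neighbour over the range of its diet, was computed for 22 groups of 4 libraries and lay above its 95% limit in 2 of them, a number that chance alone puts at about 1.1. Dl in CD replicate 2 stood above the other CD libraries (ratio 0.897), at 269.6 CPM against at most 240.2 CPM. Without that library the log2 fold change of Dl was 0.076 and still not called. Total counts of HSD replicate 4 were below those of the other HSD libraries (ratio 0.838), with 14109310 against at least 19017382 counts.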

How the results depend on the processing

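Of the 10 members, Ser, E(spl)m3-HLH and the 5 falling E(spl) bHLH genes kept their direction and their call in all 18 alternatives. The call of N was lost only on ribosomal protein scaling, and that of E(spl)mbeta-HLH with total counts alone and on ribosomal protein scaling, where its value was -0.0031. That scaling moved the median of all genes to -0.35 and left 2 members higher in place of 4. Total counts alone moved the median to -0.13. The shares of calls that were higher were 21.0% and 38.1% in these settings, against 49.8% with TMM. Dl, not called with TMM, gained a call on ribosomal protein scaling (adjusted p = 0.0473 by edgeR). It changed sign to -0.018 with DESeq2 size factors, -0.056 with upper quartile, -0.13 with total counts, -0.34 with ribosomal protein genes, -0.013 with every gene with a count, -0.035 with at least 10 counts in every library, -0.019 under DESeq2, -0.0096 under limma-voom, -0.0025 with the replicate block and -0.072 without CD replicate 1 and HSD replicate 4. Leaving out each library in turn gave -0.065 to 0.085 for Dl and 4387 to 4999 genes called in all, with 9 members called each time. Replicate numbers did not pair the libraries: deviations of same-numbered libraries correlated at -0.152 to 0.0748, and none of the 8 correlated best with its own number. Among the 42 other pathway genes, calls were 1 higher and 27 lower on ribosomal protein scaling and 3 higher and 21 lower with total counts alone, against 8 higher and 19 lower with TMM. With the replicate block 4609 genes were called, and 9 members. The depth limits E(spl)m5-HLH most, at 13 to 31 counts in HSD.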
